A study of Mus musculus with 4 samples.

Results

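The proteasome subunit genes were taken as the mouse gene symbols made of Psm, a letter from a to g and a number, without the interferon-inducible subunits Psmb8 and Psmb9, and with at least 50 UMIs (unique molecular identifiers, 1 per captured transcript) over all spots. The symbol pattern matched 46 features and the UMI minimum kept 45 of them, out of 32285 features in all and 16343 with at least 50 UMIs. Psmb11 had 32 UMIs and stayed just outside, and Psma8, the alpha subunit known from testis, had 55 UMIs and stayed just inside. By role the members were 8 alpha and 7 beta subunits of the core, the inducible beta subunit Psmb10, 6 ATPases and 11 other subunits of the cap, 7 assembly factors, 4 activators and 1 inhibitor. No member took part in forming the spot clusters from which regions were read. A filter on low counts in the region comparisons kept 44 members and removed Psma8, which was not tested.

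The study placed a single brain section from each of 4 groups of female C57BL/6 mice on Visium slides, which record polyadenylated transcripts in a fixed grid of spots. The groups were aged mice (18 to 20 months) given ethanol, aged mice given vehicle, young mice (3 to 4 months) given ethanol and young mice given vehicle. Ethanol was given by gavage at 3 g/kg and vehicle was water, with 10 exposures over 18 days in both. Tissue was taken 18 hours after the last exposure, and left hemispheres were cut coronally at 10 µm. Each group thus had 1 library, and all values for the libraries are given in the order aged ethanol, aged vehicle, young ethanol, young vehicle.

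The proteasome is the protease that degrades most ubiquitin-tagged proteins of the cell. Its barrel-shaped core stacks rings of alpha and beta subunits, of which Psmb5, Psmb6 and Psmb7 carry the active sites, and a cap of ATPases and further subunits recognises, unfolds and feeds in the substrate. Interferon exchanges the active-site subunits for Psmb8, Psmb9 and Psmb10 and raises the activator pair Psme1 and Psme2, which binds the core in place of the cap and is known from antigen presentation. In neurons the proteasome is also known for its part in synaptic plasticity, and the transcription factor Nfe2l1 raises the subunit genes together when the proteasome is inhibited.

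RefSeq promoter windows (GRCm38.p6, from 250 bases before to 50 after the gene start, read on the gene's own strand) are shown for the 6 members whose values the text returns to most often: the activator pair with opposite thalamic and white matter values, the inducible subunit, the cap subunits that were high in the aged ethanol section, and an active-site subunit. Capitals mark matches to 4 patterns searched on both strands: the GC box GGGCGG, the interferon regulatory factor pattern (GAAA and GAAA again after 2 bases of any kind), the interferon-gamma-activated pattern TTCNNNGAA and the antioxidant response element TGACNNNGC, the kind of site that Nfe2l1 binds. The windows lie at chr14:55578244-55578543 (plus strand) for Psme1, chr14:55591052-55591351 (minus) for the upstream start of Psme2, chr8:105938343-105938642 (minus) for Psmb10, chr11:80428365-80428664 (plus) for Psmd11, chr1:86064369-86064668 (plus) for Psmd1 and chr14:54617946-54618245 (minus) for Psmb5.
Psme1: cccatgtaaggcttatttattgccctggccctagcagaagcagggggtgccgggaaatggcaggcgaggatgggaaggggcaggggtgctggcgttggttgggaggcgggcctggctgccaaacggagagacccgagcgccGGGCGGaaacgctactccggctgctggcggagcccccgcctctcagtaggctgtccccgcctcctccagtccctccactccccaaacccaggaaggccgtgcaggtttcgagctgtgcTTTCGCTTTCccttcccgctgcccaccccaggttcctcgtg
Psme2: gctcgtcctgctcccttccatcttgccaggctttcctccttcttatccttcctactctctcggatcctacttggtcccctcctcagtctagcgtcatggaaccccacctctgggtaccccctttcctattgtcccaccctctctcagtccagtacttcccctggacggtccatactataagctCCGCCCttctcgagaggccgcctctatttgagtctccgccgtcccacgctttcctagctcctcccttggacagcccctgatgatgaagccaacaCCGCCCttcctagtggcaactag
Psmb10: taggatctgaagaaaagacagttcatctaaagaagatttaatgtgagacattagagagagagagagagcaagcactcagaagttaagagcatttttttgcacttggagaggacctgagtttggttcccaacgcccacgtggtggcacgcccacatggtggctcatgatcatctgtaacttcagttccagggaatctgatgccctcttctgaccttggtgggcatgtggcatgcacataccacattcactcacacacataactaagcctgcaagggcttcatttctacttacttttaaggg
Psmd11: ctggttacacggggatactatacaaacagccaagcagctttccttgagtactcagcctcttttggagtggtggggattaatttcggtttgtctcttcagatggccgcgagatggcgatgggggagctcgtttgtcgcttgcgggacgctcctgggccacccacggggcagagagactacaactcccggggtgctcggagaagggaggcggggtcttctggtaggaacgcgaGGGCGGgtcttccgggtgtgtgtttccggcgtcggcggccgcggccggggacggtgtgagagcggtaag
Psmd1: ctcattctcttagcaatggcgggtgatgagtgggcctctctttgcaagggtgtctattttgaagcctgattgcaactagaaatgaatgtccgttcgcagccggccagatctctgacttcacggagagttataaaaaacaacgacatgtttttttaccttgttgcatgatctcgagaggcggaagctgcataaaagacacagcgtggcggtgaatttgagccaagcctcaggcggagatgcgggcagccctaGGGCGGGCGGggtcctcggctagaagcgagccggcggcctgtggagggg
Psmb5: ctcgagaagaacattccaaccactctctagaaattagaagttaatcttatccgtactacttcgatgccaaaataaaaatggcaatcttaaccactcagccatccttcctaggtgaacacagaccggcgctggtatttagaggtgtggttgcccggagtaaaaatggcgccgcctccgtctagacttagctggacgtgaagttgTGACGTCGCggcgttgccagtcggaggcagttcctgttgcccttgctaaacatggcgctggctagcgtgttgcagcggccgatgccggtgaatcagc
The interferon regulatory factor pattern was found in Psme1 and not in the Psme2 or Psmb10 window, and the antioxidant response element was found in Psmb5. GC boxes were found in Psme1, Psme2, Psmd11 and Psmd1, in Psmd1 as an overlapping pair. The interferon patterns can share letters with each other, and a match describes only these letters in this window.

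Promoter windows were matched for 37 of the 45 members. Among them the GC box was found in 22 (59.5%), against 38.2% of 27025 genes with a window. The interferon regulatory factor pattern was found in 5 (13.5%; Psmb3, Psmd4, Psmd9, Psme1 and Psmg4), against 3.99% of genes. The antioxidant response element was found in 6 (16.2%; the active-site subunits Psmb5 and Psmb6, the cap subunits Psmc6 and Psmd12, the assembly factor Psmd9 and the activator Psme4), against 14.0% of genes. The CCAAT box, searched as CCAAT on both strands, was found in 12 members (32.4%), against 41.1% of genes. The interferon-gamma-activated pattern was found in 2 (5.41%; Psmd2 and Psmg1), against 9.55% of genes. Members without a window were Psmb7, Psmc3, Psmb2, Psmd7, Psmd3, Psmb1, Psma8 and Psmg2. Promoters on chromosome 18, where Psma8 and Psmg2 lie, were left out of the search, also among the 27025 genes.

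After spots with under 500 UMIs were left out, 2642, 2703, 2881 and 2716 spots remained with 48131900, 45995677, 58305713 and 52807139 UMIs. Members made up 0.422%, 0.443%, 0.449% and 0.449% of UMIs, the lowest share being that of the aged ethanol library. That library also had the highest mitochondrial share (16.5%, against 13.6% to 14.3% in the others) and the highest share of the ribosomal carry-over transcripts Lars2, Gm42418 and AY036118 (0.564%, against 0.212% to 0.296%). Clusters of spots were named from marker genes, and 11 regions had at least 20 spots in each library, from 120 spots in CA3 to 1622 in the hypothalamus. Thalamus-like spots made up 18.0% and 16.3% of the aged ethanol and young ethanol sections, against 7.47% and 6.89% of the aged vehicle and young vehicle sections, so the cutting plane and the gavage label cannot be told apart over whole sections. A meninges-like region of 270 spots was found although meninges had been removed per the labels. Of the spot barcodes, which mark fixed grid positions, 1205 were shared by all 4 libraries. In bulk spots, fewer cells of a type and less RNA per cell cannot be told apart.

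Every member tested but 1 differed among regions, as did most genes tested. Levels are given as CPM (UMIs of the gene per 1000000 UMIs of all genes in a region or section of 1 library), and between regions as scaled CPM, in which the total is corrected by the fit's TMM normalization factor. Of the 44 members tested, 43 passed the edgeR quasi-likelihood test for any difference among the 11 regions after Benjamini-Hochberg adjustment over 11664 genes, against 94% of all genes. Genes that took part in clustering, the region markers among them, were not tested. In the region comparisons all genes therefore means the others that passed the filter on low counts. The exception was Psmd13, a cap subunit (adjusted p = 0.229). The median distance between a member's highest and lowest region was 0.60 on the log2 scale, against 1.33 for all genes. The widest distance was that of Psme1 (2.04, highest in the hypothalamus and lowest in the thalamus). Psmb10 followed (1.29, highest in deep cortex and lowest in the dentate gyrus), then the cap assembly factor Psmd5 (1.246, highest in CA3 and lowest in white matter), Psme2 (1.09, highest in white matter and lowest in the dentate gyrus) and the chymotrypsin-like subunit Psmb5 (1.02, highest in CA3 and lowest in white matter). The narrowest were Psmd13 (0.21) and the core subunit Psmb1 (0.32).

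**Figure D1:**
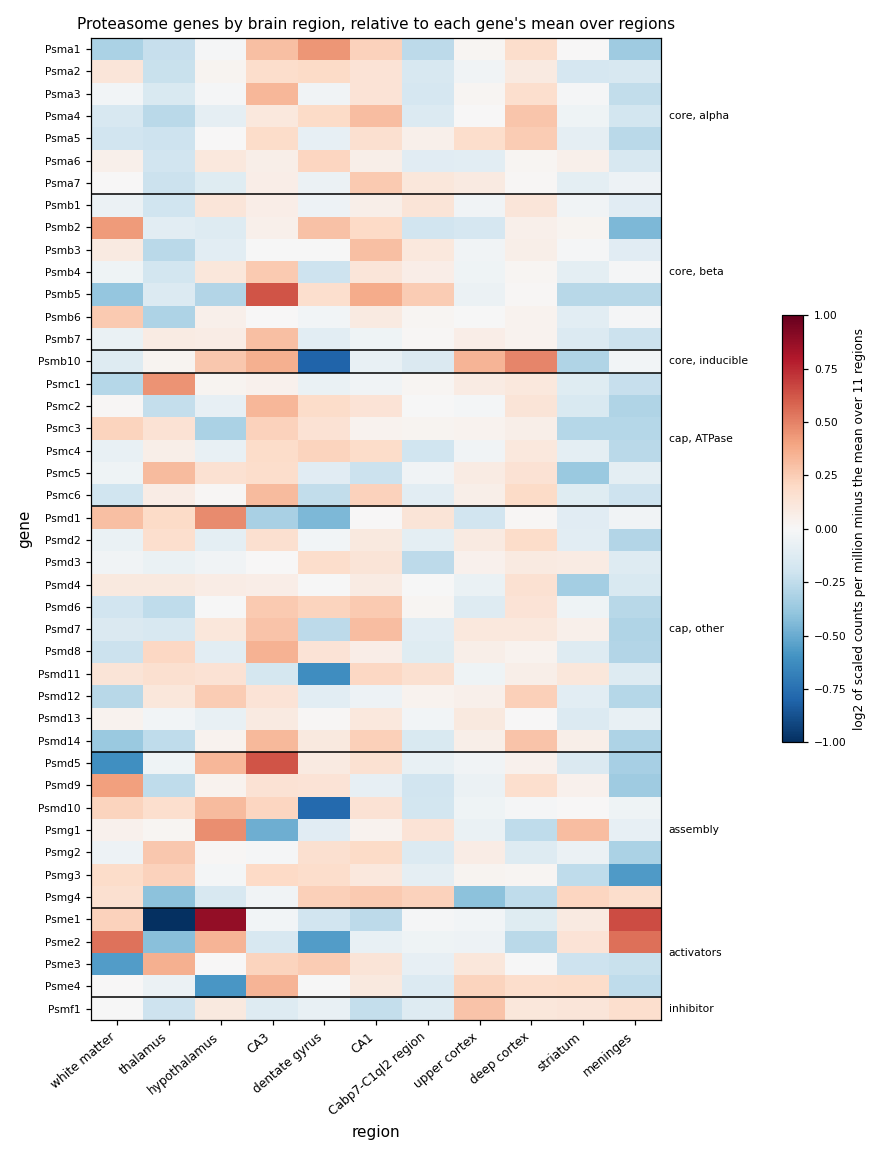
Each row is 1 of the 44 members tested, grouped by role, and each column is 1 of 11 regions; the colour gives the mean over 4 libraries of log2 scaled CPM, minus the gene's mean over regions. Most rows are pale, whereas Psme1 (thalamus against hypothalamus), Psmb10 and Psmd11 (dentate gyrus), Psmd5 (white matter against CA3) and Psmb5 (CA3) have deep colours.

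By CPM without scaling factors, most members followed one another from region to region. Over 44 points (11 regions in 4 libraries, which share library and depth), the median Pearson correlation of a member's CPM with the sum of the other members was 0.64. It was above 0.5 for 30 members and below 0 for 6, namely Psme2, Psma8, Psmd1, Psmd11, the core assembly factor Psmg1 and Psme1. The sums of core and cap subunits correlated at 0.83, and those of alpha and beta subunits at 0.89. The genes of the activator pair correlated with each other at 0.63, and Psmd1 and Psmd11 at 0.61. As a share of all UMIs, the members summed to a mean of 5054 CPM in CA3 and 5037 in the dentate gyrus, the highest of the regions, and to 3790 CPM in white matter, the lowest of the 11. These sums are not scaled. The TMM factors by which scaled CPM is divided were 1.13 to 1.17 in the dentate gyrus and 0.861 to 0.944 in white matter. Scaling thus brings both regions closer. Mitochondrial transcripts, part of every total, made up 7.68% of UMIs in the dentate gyrus and 15.9% in the thalamus. Their part in the correlations was not tested, and no value for other genes stands beside them.

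White matter was set against neocortex (the mean of upper and deep cortex), in a fit with library as a block, to ask which members follow glia-rich tissue. Upper cortex was 1 cluster of 822 spots and deep cortex 1 of 433. A cluster of 850 spots closest to the deep cortex list stayed unnamed, so neocortex here is not all of the cortex. Higher in white matter were 8 of 44 members and lower 16, against 32.5% of all genes higher and 37% lower. With mitochondrial genes left out of the totals the split turned to 14 higher and 12 lower. All genes turned as well, with 4315 of 11611 higher and 3741 lower. The median log2 ratio was -0.10 for members and -0.05 for all genes. Oligodendrocyte markers summed to a mean of 45533 CPM in white matter, against 1808 in upper cortex, and neuron markers to 1402 CPM, against 7579.

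In white matter the activators moved apart by type. Psme2, the beta subunit of the interferon-inducible activator, had 52.3, 44.5, 43.9 and 41.8 scaled CPM in white matter, against 29.3, 26.2, 30.3 and 26.8 in neocortex. The groups did not overlap, and the log2 ratio was 0.70 (SD of the library ratios 0.13, n = 4, adjusted p = 1.77e-08). Psme1, the alpha subunit of the same activator, had 61.5, 54.8, 61.5 and 62.5 scaled CPM in white matter, against 44.2, 55.9, 46.5 and 48.9 in neocortex. Its log2 ratio was 0.32 (adjusted p = 0.00278), with a higher value in 3 of 4 libraries and not in aged vehicle. Psme3, the nuclear activator, was lower (40.6 ± 8.6 against 61.3 ± 5.6 scaled CPM, SD, n = 4; log2 -0.58). Psme4, the nuclear activator known from sperm and DNA repair, did not pass (log2 -0.23, adjusted p = 0.207), nor did the inhibitor Psmf1 (log2 -0.23, adjusted p = 0.0895).

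Of the inducible core subunits, Psmb10 was lower in white matter while Psmb8 and Psmb9 were higher. Psmb10, the inducible counterpart of Psmb7, had 58.0, 50.6, 64.4 and 49.9 scaled CPM in white matter, against 80.2, 82.5, 75.4 and 85.6 in neocortex. It was lower in every library (log2 -0.53, SD 0.25, adjusted p = 1.83e-07). Psmb8, the inducible counterpart of Psmb5 and no member, had 23.7, 21.3, 31.4 and 10.6 scaled CPM in white matter, against 7.2, 4.7, 5.9 and 2.8 in neocortex. Its log2 ratio was 2.08 (adjusted p = 5.76e-13), and that of Psmb9, the inducible counterpart of Psmb6, was 1.98 (adjusted p = 3.84e-07) at means of 5.47 and 1.42 scaled CPM. In a list of interferon response genes 11 of 12 were higher and 0 lower, and in a list of class I antigen presentation genes 9 of 9 were higher. Of all genes 32.5% were higher and 37% lower. Microglia markers (12 of 12 detected) summed to 3010, 1648, 3984 and 1448 CPM in white matter, against 591, 536, 629 and 536 in upper cortex and 716, 523, 849 and 619 in deep cortex. The part of these cells in the values of Psmb8, Psmb9, Psme1 and Psme2 was not tested.

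Among core subunits in white matter, 2 of 14 alpha and beta subunits were higher and 4 lower, against 32.5% of all genes higher and 37% lower. Psmb2, a structural beta subunit, had 145.0, 163.2, 147.6 and 147.9 scaled CPM in white matter, against 99.2, 119.0, 103.9 and 111.1 in neocortex (log2 0.49, SD 0.06, adjusted p = 1.83e-08). Psmb6, the caspase-like subunit, was higher at log2 0.24 (adjusted p = 0.000144), a call lost under 5 alternatives. Psmb5 had 173.5, 162.0, 171.0 and 176.2 scaled CPM in white matter, against 215.7, 209.8, 222.6 and 232.9 in neocortex. It was lower without overlap (log2 -0.37, SD 0.04, adjusted p = 6.25e-07). Psmb7, the trypsin-like subunit, did not pass (log2 -0.11, adjusted p = 0.112), and of the alpha subunits Psma1 (log2 -0.42), Psma4 and Psma5 were lower.

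More cap subunits were lower than higher in white matter, a lead that narrowed with mitochondrial genes left out of the totals. Of 17 cap subunits 9 were lower and 2 higher, against 37% of all genes lower and 32.5% higher. With mitochondrial genes left out of the totals, 2 of 6 ATPases were lower and 1 higher (3 and 1 with them). Of the 11 other cap subunits 3 were then lower and 2 higher (6 and 1 with them). In that setting 3741 of 11611 genes were lower and 4315 higher. The lowest ratios were those of Psmd14, the deubiquitinase of the lid (84.0 ± 7.5 against 123 ± 2.5 scaled CPM, SD, n = 4; log2 -0.54, adjusted p = 5.14e-10), and Psmd12, a lid scaffold (log2 -0.42, adjusted p = 9.07e-06). Psmd1, a scaffold of the base, was higher (log2 0.40, adjusted p = 0.0123), a call lost under 6 of 14 alternatives. Of the 7 assembly factors, Psmd5, which holds back premature joining of cap and core, had 30.8, 28.6, 21.3 and 28.3 scaled CPM in white matter, against 43.1, 35.7, 43.5 and 44.7 in neocortex (log2 -0.64, SD 0.30, adjusted p = 7.56e-08). Psmg4, a chaperone of the alpha ring, went the other way, with 46.1, 49.3, 53.9 and 56.6 scaled CPM in white matter against 33.9, 38.1, 37.3 and 36.7 in neocortex (log2 0.50, adjusted p = 1.83e-06), and Psmd9, a chaperone of the base, was higher too (log2 0.35, adjusted p = 0.00355).

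The thalamus was set against neocortex next, and most of the core subunits were lower there. Higher in the thalamus were 7 of 44 members and lower 21, against 27% of all genes higher and 29.9% lower, with a median log2 ratio of -0.11 for members and -0.03 for all genes; with mitochondrial genes left out of the totals the split was 11 and 17, with total UMIs alone 4 and 23, and without the young ethanol library 3 and 18. Without mitochondrial genes 3731 of 11611 genes were higher and 2890 lower. In the main fit all 7 alpha subunits tested were lower and 4 of 7 beta subunits were lower, and none of these 14 was higher. Under each alternative all 7 alpha subunits had a ratio below 0, and 6 or 7 of them passed. Psma4 had 82.6, 74.7, 87.3 and 79.2 scaled CPM in the thalamus, against 107.1, 107.6, 108.6 and 107.4 in neocortex (log2 -0.38, SD 0.09, adjusted p = 9.54e-06). Psma5 was lower to the same extent (log2 -0.39, SD 0.28). Psmb6 had 142.6, 172.3, 161.8 and 145.1 scaled CPM in the thalamus, against 171.7, 200.4, 207.9 and 199.5 in neocortex (log2 -0.32, adjusted p = 2.37e-06). Psmb5 (log2 -0.10, adjusted p = 0.122) and Psmb7 (log2 0.04, adjusted p = 0.567) did not pass, and Psmb10 was lower (log2 -0.39, adjusted p = 8.42e-06).

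Of 17 cap subunits 4 were higher in the thalamus and 4 lower (23.5% each), near the shares of all genes (27% and 29.9%). Psmc1, an ATPase of the base ring, had 206.7, 169.4, 199.8 and 193.2 scaled CPM in the thalamus, against 148.6, 142.0, 153.2 and 155.1 in neocortex. The groups did not overlap (log2 0.36, SD 0.09, adjusted p = 4.69e-07). Psmc5, another ATPase, had 164.1, 179.8, 195.7 and 177.6 scaled CPM in the thalamus, against 162.3, 145.7, 154.4 and 161.0 in neocortex (log2 0.20, adjusted p = 0.00518). Psmd14 had 94.2, 88.0, 98.4 and 83.4 scaled CPM in the thalamus, against 125.1, 119.2, 123.9 and 122.8 in neocortex, and it was lower without overlap (log2 -0.42, adjusted p = 4.55e-08). Psmd1 was higher at log2 0.30 (adjusted p = 0.0327), a call lost under 7 of 14 alternatives.

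The ratio of summed core UMIs to summed cap UMIs, which no scaling changes, was 1.18 ± 0.03 in the thalamus (SD, n = 4 libraries), with single values of 1.21, 1.15, 1.20 and 1.15. In the other 10 regions the mean ratio lay between 1.38 and 1.49, and the lowest single value was 1.32 in the upper cortex of the aged ethanol section. The highest thalamic value therefore stayed below the lowest value of any other region. The difference in this ratio was not tested.

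**Figure D2:**
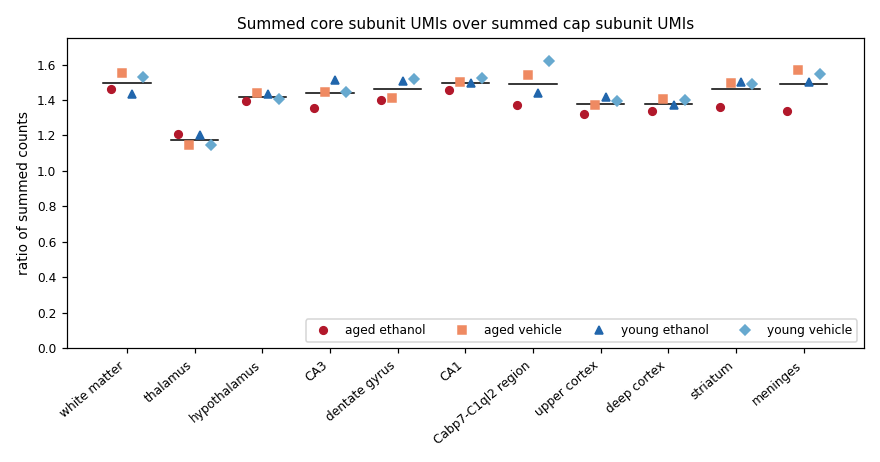
The summed UMIs of 14 core subunits over those of 17 cap subunits are plotted for 11 regions, with 1 point per library and a line at the mean. The 4 thalamic points lie between 1.15 and 1.21, below every point of the other regions, and the aged ethanol point is the lowest of the 4 in 9 of 11 regions.

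Of the activators, Psme1 was far lower in the thalamus. It had 23.5, 28.4, 21.6 and 16.5 scaled CPM in the thalamus, against 44.2, 55.9, 46.5 and 48.9 in neocortex. The groups did not overlap, and the log2 ratio was -1.09 (SD 0.30, adjusted p = 5.51e-14). Psme2 was lower at log2 -0.25 (adjusted p = 0.0278) and Psme4 at log2 -0.33 (adjusted p = 0.0363), both calls lost under 5 alternatives. Psme3 was higher (75.9 ± 12 against 61.3 ± 5.6 scaled CPM; log2 0.34, adjusted p = 0.000219), in 3 of 4 libraries, and Psmf1 was lower (log2 -0.33, adjusted p = 0.00513). Of the assembly factors, Psmg2 (log2 0.29) and Psmg3 (log2 0.24, a call lost under 7 of 14 alternatives), chaperones of the alpha ring, were higher and Psmd9 was lower (log2 -0.35). The 3' end of Psme1 (chr14:55578494-55581527) overlaps that of Emc9, and whether reads were counted by strand was not stated. Emc9 had a mean of 35.5 CPM in the thalamus and 49.4 in the hypothalamus, against 38.5 in upper cortex.

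In the hypothalamus the activator pair was high. Higher than in neocortex were 8 of 44 members and lower 9, against 23.9% of all genes higher and 26.1% lower, a balance that turned to more higher than lower under 5 alternatives of scaling, tool, cluster number or regions in the fit, and without either young library. The median log2 ratio was -0.05 for members and -0.01 for all genes. Psme1 had 97.4, 100.3, 89.5 and 88.7 scaled CPM in the hypothalamus, against 44.2, 55.9, 46.5 and 48.9 in neocortex. Every hypothalamic value exceeded every neocortical one (log2 0.95, SD 0.14, adjusted p = 4.02e-16). Psme2 had 37.3, 41.1, 43.8 and 36.2 scaled CPM in the hypothalamus, against 29.3, 26.2, 30.3 and 26.8 in neocortex (log2 0.49, SD 0.13, adjusted p = 1.17e-06). Psmb8 (log2 0.36, adjusted p = 0.147), Psmb9 (log2 0.45, adjusted p = 0.244) and Psmb10 (log2 -0.13, adjusted p = 0.0892) did not pass there. Psme4 had 12.2, 12.4, 12.6 and 10.1 scaled CPM in the hypothalamus, against 17.02, 20.6, 20.3 and 23.8 in neocortex (log2 -0.79, adjusted p = 9.19e-07).

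Of 7 assembly factors 3 were higher in the hypothalamus and 0 lower, while 4 did not pass, against 23.9% of all genes higher and 26.1% lower. Psmg1 had 18.2, 17.1, 18.8 and 17.5 scaled CPM in the hypothalamus, against 11.3, 9.9, 12.3 and 13.4 in neocortex (log2 0.60, adjusted p = 6.49e-06). Psmd10, a base chaperone also known as an oncoprotein, was higher at log2 0.33 (adjusted p = 0.00735) and Psmd5 at log2 0.31 (adjusted p = 0.000116). Psmd1 had 25.4, 32.8, 30.6 and 20.7 scaled CPM in the hypothalamus, against 26.5, 16.5, 14.7 and 17.5 in neocortex. Its log2 ratio was 0.58 (adjusted p = 1.11e-05), with a higher value in 3 of 4 libraries and not in aged ethanol. Lower were the ATPase Psmc3 (log2 -0.36, SD 0.04, adjusted p = 2.32e-07), Psmb5 (log2 -0.27, adjusted p = 5.08e-05), the base scaffold Psmd2 (log2 -0.24, adjusted p = 0.00019), Psma4 (log2 -0.23) and Psma5 (log2 -0.20, a call lost under 5 alternatives). Psmb6, Psmb7 and Psmf1 had log2 ratios of 0.04, 0.03 and -0.11 and did not pass.

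The hippocampal cell layers (CA1, CA3 and dentate gyrus) were set against neocortex because the tissue label names the hippocampus. Higher were 11 of 44 members and lower 4, against 22.6% of all genes higher and 24% lower, with a median log2 ratio of 0.03 for members and -0.00 for all genes. Psmb5 had 299.4, 264.7, 310.2 and 312.3 scaled CPM in the cell layers, against 215.7, 209.8, 222.6 and 232.9 in neocortex. All values of the layers lay above all values of neocortex (log2 0.41, SD 0.06, adjusted p = 2.76e-11). Psmb6 and Psmb7, the other active-site subunits, both had a log2 ratio of 0.01 and did not pass. Psmb2 (log2 0.25), Psma1 (log2 0.22), the lid subunit Psmd6 (log2 0.25) and Psmd5 (log2 0.27) were higher, as was Psmg4 with 52.9, 47.5, 55.1 and 50.9 scaled CPM in the layers against 33.9, 38.1, 37.3 and 36.7 in neocortex (log2 0.51, adjusted p = 3.75e-08).

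The 4 members that were lower in the layers were Psmb10, Psmf1, Psmc5 and Psmc1. Psmb10 had 50.9, 56.7, 58.8 and 60.7 scaled CPM in the layers, against 80.2, 82.5, 75.4 and 85.6 in neocortex (log2 -0.58, SD 0.13, adjusted p = 1.22e-10). Psmf1, which inhibits the core in the test tube and shapes its traffic in cells, had 26.7, 24.8, 31.4 and 25.1 scaled CPM in the layers, against 38.0, 28.8, 34.8 and 35.7 in neocortex (log2 -0.33, adjusted p = 0.00439). Psmc5 (log2 -0.15, adjusted p = 0.0149) and Psmc1 (log2 -0.12, adjusted p = 0.0494) differed little, and the call on Psmc1 was lost under 9 of 12 alternatives. None of the 4 activators passed, with log2 ratios of -0.10 for Psme1, -0.08 for Psme2 and -0.03 for Psme4. Psmb8 was lower (log2 -0.76, adjusted p = 0.024). In the antigen presentation list 5 of 9 genes were lower and 0 higher, against 24% of all genes lower and 22.6% higher.

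**Figure D3:**
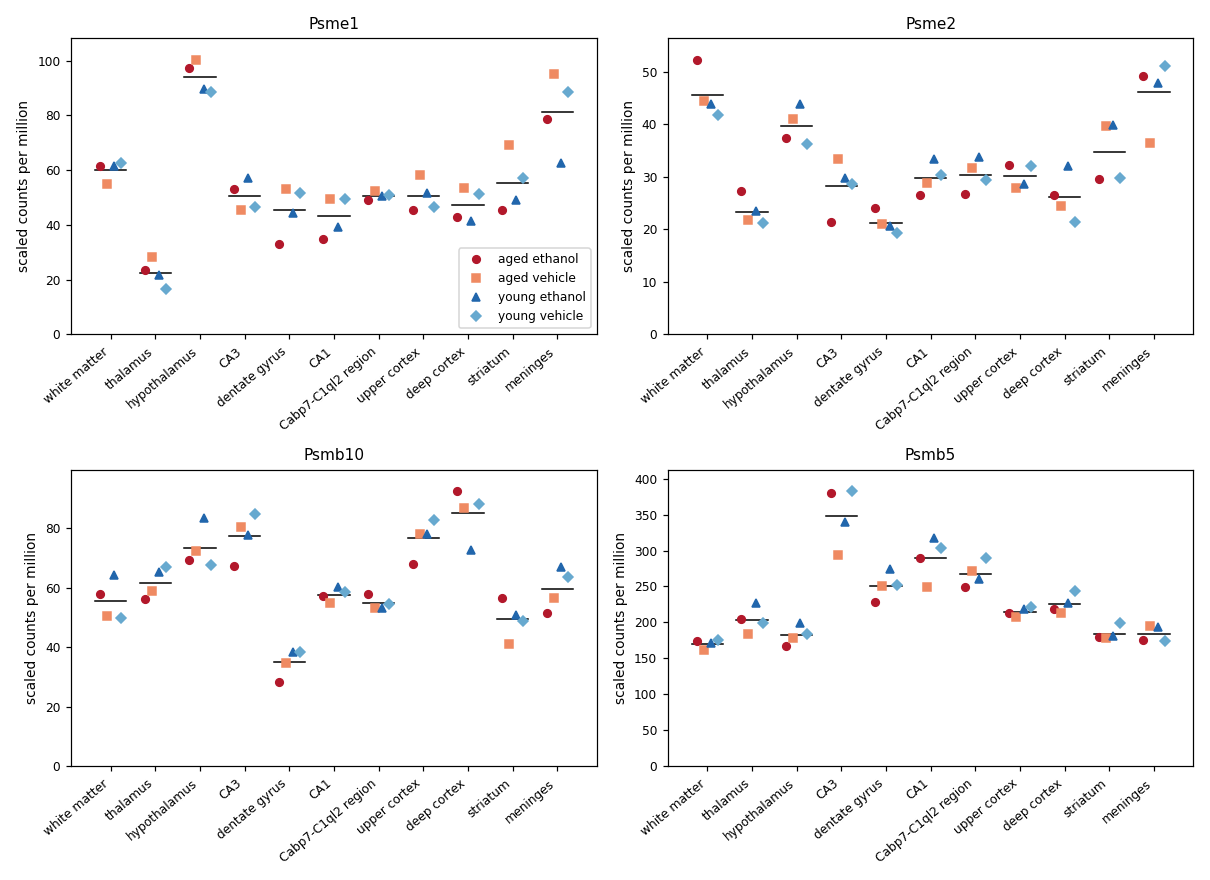
Scaled CPM of the activator genes Psme1 and Psme2, the inducible subunit Psmb10 and the chymotrypsin-like subunit Psmb5 are plotted for 11 regions, with 1 point per library and a line at the mean. Psme1 lies between 16.5 and 28.4 in the thalamus and between 88.7 and 100.3 in the hypothalamus, Psmb10 between 28.2 and 38.5 in the dentate gyrus, and Psmb5 between 293.1 and 382.1 in CA3.

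Within the hippocampus the dentate gyrus was set against CA1, and no member was called higher. Lower were 10 of 44 members, against 17.6% of all genes lower and 15.5% higher, by edgeR with TMM factors, while scaling by total UMIs alone turned the split to 9 higher and 5 lower. At an unadjusted p under 0.05, 2 members were higher and 10 lower, and DESeq2 called 0 higher and 10 lower. The median log2 ratio was -0.06 for members and -0.01 for all genes. Psmd11, which braces the cap against the core, had 20.4, 15.4, 19.2 and 13.2 scaled CPM in the dentate gyrus, against 38.9, 22.5, 33.3 and 27.1 in CA1. The dentate values lay below all CA1 values (log2 -0.84, SD 0.21, adjusted p = 8.7e-05). Psmb10 had 28.2, 34.9, 38.4 and 38.5 scaled CPM in the dentate gyrus, against 57.1, 54.8, 60.2 and 58.5 in CA1 (log2 -0.75, SD 0.19, adjusted p = 8.51e-06). Psmd10 had 15.03, 7.0, 22.3 and 13.2 scaled CPM in the dentate gyrus, against 25.1, 17.9, 28.1 and 31.4 in CA1, and its groups overlapped across libraries (log2 -0.73, SD 0.48, adjusted p = 0.00755).

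Psmd7, the partner of Psmd14 in the lid, was also lower in the dentate gyrus (61.7 ± 9.9 against 91.1 ± 8.6 scaled CPM, SD, n = 4; log2 -0.54, adjusted p = 2.85e-05), as was the ATPase Psmc6 (79.8 ± 13 against 111 ± 9.3; log2 -0.46, adjusted p = 0.000204). Psme2 was lower at log2 -0.47 (adjusted p = 0.0269) and Psmb5 at log2 -0.21 (adjusted p = 0.0201), both calls lost under 5 alternatives. The remaining lower members were Psma7, Psmb3 and Psmb4. Psmb6, Psmb7, Psme1, Psme4 and Psmf1 had log2 ratios of -0.10, -0.06, 0.04, -0.02 and 0.18 and did not pass. Mitochondrial transcripts made up 7.68% of UMIs in the dentate gyrus and 12.4% in CA1, and their part in these ratios was not tested beyond the alternative without them.

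CA3 was set against CA1 in the same way. Higher were 7 of 44 members and lower 1, against 12.8% of all genes higher and 12% lower, with a median log2 ratio of 0.05 for members and -0.04 for all genes; 21 to 40 spots per library stood for CA3. With clusters at Leiden resolution 2 the split was 3 higher and 2 lower and the median of members -0.006. Psmd5 had 65.9, 62.5, 61.7 and 66.1 scaled CPM in CA3, against 48.2, 44.4, 46.2 and 45.0 in CA1. The groups lay well apart (log2 0.48, SD 0.06, adjusted p = 0.000961). Psmb10 had 67.3, 80.4, 77.7 and 84.9 scaled CPM in CA3, against 57.1, 54.8, 60.2 and 58.5 in CA1 (log2 0.45, adjusted p = 0.00224). Psmb5 had 379.6, 293.1, 339.3 and 382.1 scaled CPM in CA3, against 289.9, 249.8, 317.4 and 303.4 in CA1. It was higher in each library although the groups overlapped (log2 0.26, adjusted p = 0.0048). Psmb7 (log2 0.35, adjusted p = 0.000626), Psmc5 (log2 0.40, adjusted p = 0.000651), the lid subunit Psmd8 (log2 0.28, adjusted p = 0.0144) and Psma3 were also higher. Psmb3, a structural beta subunit, was the 1 member lower, with 130.3, 140.6, 129.1 and 148.6 scaled CPM in CA3 against 150.6, 165.6, 191.7 and 169.6 in CA1 (log2 -0.29, adjusted p = 0.0186). Psmb6, Psme1, Psme2, Psme4 and Psmf1 had log2 ratios of -0.09, 0.19, -0.02, 0.27 and 0.12 and did not pass.

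The dentate gyrus was also set against a region named for its leading genes Cabp7 and C1ql2, a comparison added after the clusters were seen. That region had 5 of 7 dentate markers raised at least 2-fold, with a median log2 difference of 1.83 from the other spots, against 7 of 7 and 3.37 in the dentate gyrus, and it was kept apart because its median lay more than 1 below. Higher in the dentate gyrus were 11 of 44 members and lower 4, against 24.8% of all genes higher and 20.2% lower; scaling by total UMIs alone made it 32 and 2 and moved the median of all genes to 0.41, against 0.07 with TMM factors. Other settings gave smaller or no leads for higher members, with 9 and 6 by RLE factors or DESeq2, 9 and 7 without mitochondrial genes or with only these regions fitted, 7 and 5 without a filter on low counts or without aged ethanol, and 7 and 7 in spots of at least 2000 UMIs. Members had a median log2 ratio of 0.04, which was below 0 under 5 of the alternatives. Psma1 had 137.0, 152.1, 156.5 and 155.1 scaled CPM in the dentate gyrus, against 96.1, 99.0, 81.8 and 92.2 in the Cabp7-C1ql2 region. The groups lay far apart (log2 0.70, SD 0.18, adjusted p = 1.12e-08). Psmd11 had 20.4, 15.4, 19.2 and 13.2 scaled CPM in the dentate gyrus, against 41.1, 25.8, 26.7 and 24.7 in the Cabp7-C1ql2 region (log2 -0.81, SD 0.23, adjusted p = 9.06e-05). Psmb10 was lower too (35.01 ± 4.8 against 54.8 ± 2.2 scaled CPM; log2 -0.67, adjusted p = 3.13e-05), as was Psme2 (21.2 ± 2.0 against 30.4 ± 3.0; log2 -0.51, adjusted p = 0.00917). Psmb4 was lower at log2 -0.27 (adjusted p = 0.00169), whereas scaling by total UMIs gave 0.07.

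Also higher in the dentate gyrus than in the Cabp7-C1ql2 region were Psmb2 (log2 0.49, adjusted p = 2.31e-05), the ATPase Psmc4 (log2 0.46, adjusted p = 0.00012), the lid subunit Psmd3 (log2 0.45, adjusted p = 0.000147), Psma4 (log2 0.33, adjusted p = 0.00582) and Psmd9 (log2 0.40, adjusted p = 0.0389), the last a call lost under 10 of 13 alternatives. Psmb5, Psmb6, Psmb7, Psme1, Psme4 and Psmf1 had log2 ratios of -0.10, -0.03, -0.11, -0.19, 0.20 and 0.10 and did not pass. Psmb8 averaged 1.70 ± 1.8 scaled CPM in the dentate gyrus and 10.4 ± 3.1 in the Cabp7-C1ql2 region (adjusted p = 2.8e-06). In the antigen presentation list 9 of 9 genes were lower in the dentate gyrus, and in the interferon list 6 of 12, against 20.2% of all genes. Mitochondrial transcripts made up 7.68% of UMIs in the dentate gyrus and 23.0% in the Cabp7-C1ql2 region.

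Genes that work with the proteasome were read from a list of 26. In white matter 26.9% were higher and 34.6% lower, near the 32.5% and 37% of all genes. The thalamus had 23.1% higher and 30.8% lower, against 27% and 29.9% of all genes, and the hypothalamus 19.2% and 26.9%, against 23.9% and 26.1%. In the hippocampal layers 11.5% were higher and 23.1% lower, against 22.6% and 24% of all genes. In dentate gyrus against CA1 2 of the 26 were higher and 9 lower, against 15.5% and 17.6% of all genes. In CA3 against CA1 8 were higher and 2 lower, against 12.8% and 12% of all genes, and in dentate gyrus against the Cabp7-C1ql2 region 8 and 10, against 24.8% and 20.2%. Nfe2l1, the transcription factor of the subunit genes, was lower in white matter (log2 -0.43, adjusted p = 6.07e-07), in the hippocampal layers (log2 -0.36, adjusted p = 3.22e-07) and in dentate gyrus against CA1 (log2 -0.54, adjusted p = 2.34e-05) and the Cabp7-C1ql2 region (log2 -0.46, adjusted p = 0.000175). It was higher in CA3 than in CA1 (log2 0.33, adjusted p = 0.00675). Adrm1, a ubiquitin receptor of the cap outside the symbol rule, was lower in the thalamus (log2 -0.43, adjusted p = 0.0017) and passed in no other of these comparisons. Pomp, the maturation factor of the core, was lower in the hypothalamus (log2 -0.17) and the hippocampal layers (log2 -0.11) and higher in CA3 than in CA1 (log2 0.19) and in dentate gyrus than in the Cabp7-C1ql2 region (log2 0.18). Over whole sections Psmb8 had 7.5, 5.8, 7.3 and 4.8 CPM and Psmb9 had 2.6, 1.8, 2.3 and 1.5 CPM. Nfe2l1 had 124.1, 141.4, 144.6 and 128.0 CPM, Adrm1 25.7, 29.3, 25.02 and 20.2 CPM, and Pomp 229.8, 254.9, 263.7 and 263.1 CPM.

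Age and gavage were compared as pairs of single libraries, without a test, by the ratio of CPM with an exact conditional binomial 95% interval, which covers counting error only. Genes with 50 UMIs or more in at least 1 of both libraries were counted as high when the ratio was at least 25% above 1 and as low when it was 0.8 or less, and a 2-fold limit was applied in the same way. None of the 44 members with at least 50 UMIs reached 2-fold in any of the 4 comparisons over whole sections. Psma8 lay under this minimum, with 23 UMIs in young ethanol and 8 in young vehicle (ratio 2.60, interval 1.12 to 6.73). Of all genes, 0.687% were higher and 0.988% lower by 2-fold in aged ethanol over aged vehicle, 1.23% and 0.955% in young ethanol over young vehicle, 0.252% and 0.105% in aged vehicle over young vehicle, and 0.173% and 0.319% in aged ethanol over young ethanol.

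Among aged sections, Psmd11 had the highest ratio of ethanol over vehicle. It had 34.0 CPM (1638 UMIs) in aged ethanol, against 23.4 CPM (1078 UMIs) in aged vehicle, a ratio of 1.45 (interval 1.34 to 1.57). The young ethanol and young vehicle sections had 26.8 CPM (1565 UMIs) and 25.9 CPM (1368 UMIs). Psmd11 was the 1 member of 44 higher by at least 25%, against 7.64% of all genes, and no member had a ratio of 0.8 or less, against 13.1%. With the named regions given equal weight, Psmb6 passed the lower limit at 0.799. The median log2 ratio was -0.06 for members and -0.07 for all genes. The interval lay above 1 for 7 members and below 1 for 21, whereas it was 13 and 15 without mitochondrial genes in the totals and 13 and 13 with median-of-ratios factors. The share of all genes with an interval off 1 was not counted, and the medians show members and all genes shifted alike.

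Next to Psmd11, the highest aged ethanol over vehicle ratios were 1.23 (1.13 to 1.34) for Psmd1, 1.10 for Psmc1, 1.09 for Psme3 and 1.09 for Psmg1. Psmd1 had 26.4 CPM (1269 UMIs) in aged ethanol, against 21.4 (985 UMIs) in aged vehicle, and 20.4 and 19.3 in young ethanol and young vehicle. The lowest ratio was that of Psme1 (0.804, interval 0.762 to 0.847), with 53.1 CPM in aged ethanol against 66.0 in aged vehicle. It was followed by Psmb6 (0.822; 167.8 CPM in aged ethanol against 204.1 in aged vehicle), Psmd8 (0.841; 115.1 against 136.9), Psmb2 (0.850; 99.2 against 116.7) and Psmd10 (0.861; 22.5 against 26.2). Psmb5, Psmb7 and Psmb10 had ratios of 0.962, 0.956 and 0.918 with intervals below 1. Psme2 (0.956) and Psmf1 (0.969) had intervals that included 1, and Psme4 had a ratio of 0.880 (0.796 to 0.973).

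The aged ethanol over vehicle ratio of Psmd11 was above 1 in all 11 regions, from 1.23 in the striatum to 1.93 (1.40 to 2.71) in the thalamus, and the interval excluded 1 in 5 of them. Of all genes, 1.42% were above 1 in all 11 regions in this comparison. Psmd11 was picked by its whole-section ratio, and the regions are parts of the same sections. Their shared sign is therefore not separate support, and the share of all genes is not a like baseline. In upper cortex Psmd11 had 35.4 CPM in aged ethanol, against 18.7 in aged vehicle, and 25.2 and 26.5 in young ethanol and young vehicle. In CA1 it had 39.2 CPM in aged ethanol, against 23.0 in aged vehicle, and 33.9 and 27.0 in young ethanol and young vehicle. The striatum differed in that young vehicle (34.3 CPM) lay above aged ethanol (27.7 CPM). Psmb2, Psmd8 and the alpha subunit Psma2 were below 1 in all 11 regions, as were 3.48% of all genes. Psmd1 was above 1 in 10 of 11 regions and Psme1 below 1 in 9 of 11, and the shares of all genes that did so were not counted. The higher mitochondrial and carry-over shares of the aged ethanol library stand beside these values, and their part was not tested. Without mitochondrial genes in the totals the Psmd11 ratio was 1.504.

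**Figure D4:**
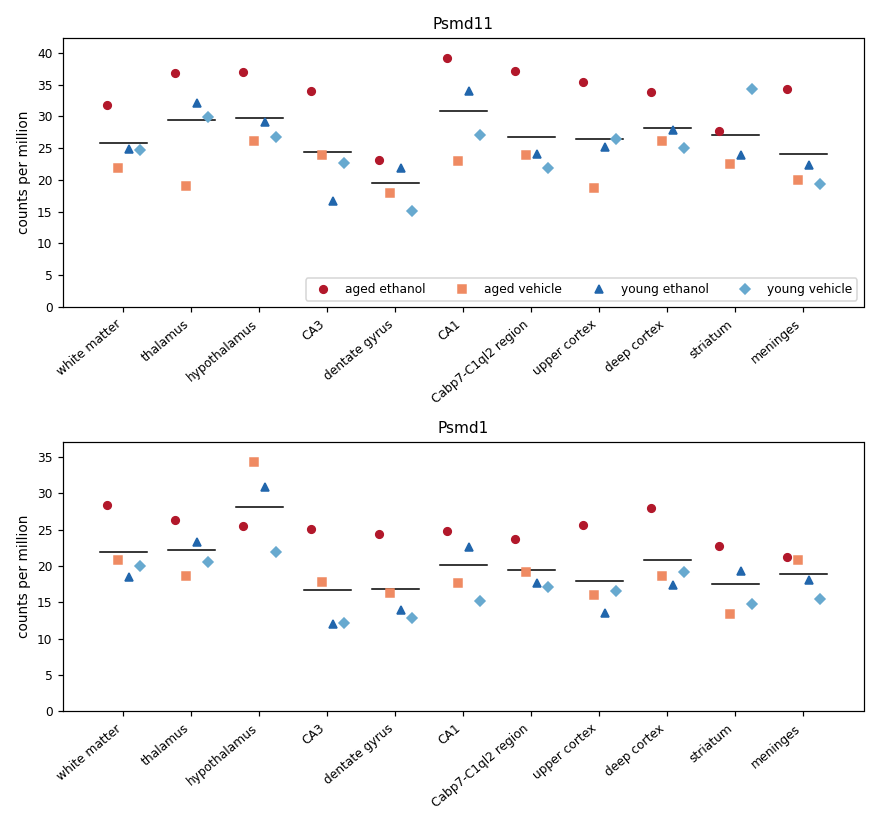
CPM of Psmd11 and Psmd1 are plotted for 11 regions, with 1 point per library and a line at the mean. The aged ethanol point of Psmd11 is above the aged vehicle point in all 11 regions, and that of Psmd1 in 10 of 11, the exception being the hypothalamus.

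Over whole young sections, no member was counted as high or low in ethanol over vehicle, against 8.27% of all genes higher and 7.07% lower, and the median log2 ratio was 0.003 for members and for all genes. The lowest ratio was again that of Psme1 (0.878, interval 0.835 to 0.923; 52.8 CPM in young ethanol against 60.2 in young vehicle), followed by Psmg4 (0.920), Psmd10 (0.946), Psmd13 (0.950) and Psmd5 (0.956). The highest were 1.06 for Psmc1, 1.06 for Psmd1, 1.05 for Psmc4, 1.05 for Psme3 and 1.05 for the ubiquitin receptor Psmd4. Psmd11 had a ratio of 1.04 (0.963 to 1.12). Psmb5, Psmb6, Psmb7, Psmb10, Psme2, Psme4 and Psmf1 lay between 0.975 and 1.04, and no member was on the same side of 1 in all 11 regions, against 0.385% of all genes above 1 and 0.344% below 1 in all of them.

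Within the thalamus and upper cortex most members were above 1 in young ethanol over young vehicle, and the median of all genes was above 1 too. The share of all genes above 1, or with the interval above 1, was not counted. Thalamic spots differed in make-up between libraries. At Leiden resolution 2, a thalamic cluster led by Prkcd and Abhd12b held 80, 98, 123 and 105 spots. Another, led by Gbx2 and Tcf7l2, held 231, 62, 218 and 50. Thalamic spots had a median of 18000 UMIs in young ethanol and 11102 in young vehicle. The part of these differences in the thalamic ratios was not tested. In the thalamus 35 of 44 members were above 1, with the interval above 1 for 11 and below 1 for 0, and the median log2 ratio was 0.16 for members and 0.04 for all genes. There 5 members were counted as high, against 15.5% of all genes, and 0 as low, against 9.95%. The highest were the inhibitor Psmf1 (1.55, interval 1.14 to 2.16; 300 UMIs in young ethanol and 47 in young vehicle) and Psme3 (1.42, interval 1.18 to 1.72; 763 and 131 UMIs), and the intervals of Psme1, Psmg3 and Psmd10 included 1. In upper cortex 34 of 44 members were above 1, with the interval above 1 for 12 and below 1 for 1, and the median log2 ratio was 0.08 for members and 0.09 for all genes. Psma2 was the 1 member counted as high there (1.28, interval 1.18 to 1.39), against 14.8% of all genes higher and 4.23% lower.

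**Figure D5:**
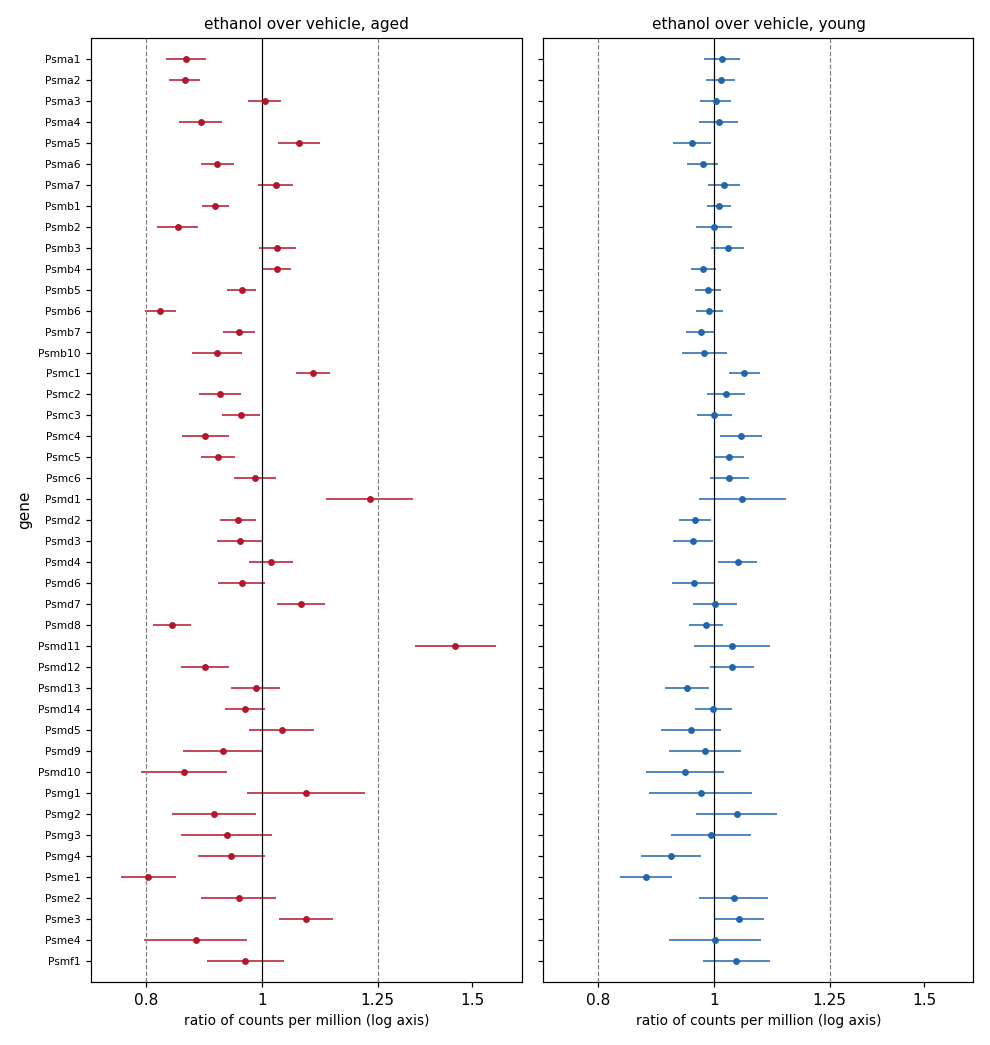
The ratio of CPM in ethanol over vehicle is plotted for 44 members over the whole section, aged at left and young at right, with exact 95% intervals for counting error and dashed lines at the limits of 25% above 1 and of 0.8. In the aged pair Psmd11 lies at 1.45 and Psme1 at 0.804, while in the young pair all members lie between these limits.

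By region, Psme1 was lower with ethanol at both ages in several but not all regions. In deep cortex it had 43.6 CPM in aged ethanol against 55.7 in aged vehicle, and 43.1 in young ethanol against 54.4 in young vehicle, with ratios of 0.783 and 0.792. In the meninges-like region (54 to 79 spots per library) the ratios were 0.795 among aged and 0.696 among young. In CA1 (61 to 82 spots per library) they were 0.695 and 0.810. Of all genes, 1.52% were low by the limit of 0.8 at both ages in deep cortex and 3.53% in the meninges-like region. In upper cortex the ages differed, with 45.7 CPM in aged ethanol against 61.7 in aged vehicle (0.740) and 54.6 in young ethanol against 45.8 in young vehicle (1.19). White matter gave 1.05 among aged and 0.922 among young, and both intervals included 1. CA3 went the other way at both ages, with 54.6 CPM in aged ethanol against 47.0 in aged vehicle. Among young, Psme1 had 59.8 CPM there in ethanol against 46.2 in vehicle, from 37 to 61 UMIs per library at both ages. In the thalamus Psme1 was counted as high with ethanol among young, with an interval that included 1, and was lower with ethanol among aged. The thalamus, where Psme1 was lowest, took a larger share of both ethanol sections. With the named regions given equal weight, the ratio of ethanol over vehicle for Psme1 was 0.815 among aged and 0.923 among young.

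Between ages, vehicle sections differed little. Aged vehicle over young vehicle, no member was counted as high or low, against 4.85% of all genes higher and 3.34% lower, and the median log2 ratio was -0.02 for members and 0.02 for all genes. The highest ratios were 1.14 for Psmg2, 1.11 for Psmd1, 1.10 for Psme1, 1.06 for Psma4 and 1.06 for Psma1. The lowest were 0.857 for Psmg1, 0.903 for Psma5, 0.905 (0.835 to 0.981) for Psmd11, 0.933 for Psmd7 and 0.936 for Psmf1. Psmb5, Psmb6, Psmb7, Psmb10, Psme2 and Psme4 lay between 0.951 and 1.04. No member was on the same side of 1 in all 11 regions, against 0.413% of all genes above 1 and 0.469% below 1.

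Aged ethanol over young ethanol, 2 members were higher by at least 25%, against 4.57% of all genes, and none had a ratio of 0.8 or less, against 7.61%. They were Psmd1 (1.29, interval 1.19 to 1.40) and Psmd11 (1.27, interval 1.18 to 1.36). The median log2 ratio was -0.08 for members and -0.05 for all genes, with the interval above 1 for 2 members and below 1 for 25. These counts were 5 and 19 without mitochondrial genes in the totals and 5 and 15 with median-of-ratios factors, and they have no share of all genes beside them. The next highest were Psmd5 (1.05), Psma5 (1.01) and Psme1 (1.004), and the lowest were Psmb6 (0.839), Psmb2 (0.866), Psmf1 (0.868), Psme4 (0.872) and Psmc4 (0.873). Psmb5, Psmb7, Psmb10 and Psme2 lay between 0.924 and 0.960. Psmd11 was above 1 in all 11 regions, as were 0.942% of all genes, and Psmb6, Psmb1 and Psmc4 were below 1 in all 11, as were 2.13%. The regions are parts of the same sections, so their signs are not separate support for the whole-section ratios. These 4 comparisons share libraries in pairs, and the aged ethanol library enters both in which Psmd11 was high.

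The ratio of core to cap was 1.35, 1.39, 1.38 and 1.40 over whole sections, and within regions the aged ethanol library had the lowest value of the 4 in 9 of 11 regions. The exceptions were white matter, where young ethanol was lowest (1.43, against 1.46 in aged ethanol), and the thalamus, where aged ethanol was highest (1.21).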

How the data were processed

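Visium spots of 4 brain sections were analysed, 1 library per pairing of age and gavage. The deposited matrix holds UMI counts per gene and spot, which the authors made with Space Ranger 1.3.1 per the file headers, while the submitters' processing notes name Space Ranger 2.0.0 and the mm10 build. Annotation release and strand setting were not given in the sources used here. Symbols, positions and promoters came from RefSeq tables of GRCm38.p6.

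Spots with under 500 UMIs were left out. The other 10942 spots were clustered (scanpy 1.11.5, 30 principal components, 15 neighbours, Leiden resolution 1, 24 clusters) on 1828 genes without any member, and a cluster took the name of the marker list with the highest median log2 difference from the other spots, where that median was at least 1, at least 3 markers were raised 2-fold and no other list had more of the 10 leading genes. Of clusters that took the same name, those with a median more than 1 below the best lost it. Such clusters with white matter markers stayed unnamed, and 1 with dentate markers was kept as the Cabp7-C1ql2 region. Clusters that met the rule for no list stayed unnamed too, among them 1 of 850 spots closest to the deep cortex list. No doublet caller was run, because a spot can hold several cells. The members and gene lists were chosen with earlier results of these data known.

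UMI counts were summed by region and library and tested in one fit with edgeR 4.0.16 (TMM, quasi-likelihood, region and library terms, R 4.3.3), adjusted by Benjamini-Hochberg over 11664 genes at 0.05, and tested on simulated data. Known changes were set in white matter against neocortex for 50 of 11664 genes at each size. The fit recovered 5 at 25%, 26 at 1.5-fold, 45 at 2-fold and 48 at 4-fold, so small simulated differences were mostly missed. In the data far more genes were called, 32.5% higher and 37% lower in this comparison. Members passed there at less than 25%, such as Psmb6 at log2 0.24, so the simulated rates do not carry over. A member that did not pass can still differ. n is 4 libraries, which differ in age and gavage, and regions of 1 library share its section. Nothing in the labels says how many mice stand behind a library. With 1 library per group, age and gavage have no replicate error, so CPM ratios carry exact conditional binomial 95% intervals (scipy 1.17.1) for counting error only. Summed over a section, 3 UMIs stand for 0.0623, 0.0652, 0.0515 and 0.0568 CPM in aged ethanol, aged vehicle, young ethanol and young vehicle. The planned comparison of hippocampal neuropil with CA1 was not made, because no cluster met its markers at resolution 1, and at resolution 0.5, where 1 cluster did, no cluster was named CA1. Named members were the up to 6 highest and 6 lowest called per region comparison, the 5 highest and 5 lowest per library comparison, and Psmb5, Psmb6, Psmb7, Psmb10, Psme1, Psme2, Psme4, Psmf1, Psmb8, Psmb9, Nfe2l1, Adrm1 and Pomp. Alternatives were DESeq2 1.42.0, other scalings, filters, cluster resolutions, spot minimums, a fit of the regions compared alone and each library left out.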

Additional observations from a re-analysis of the deposited data

Results flagged for a closer look

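With 1 library per group, there was no group of replicates in which to look for an outlier. The results below are those in which the same contrast pointed in opposite directions in 2 settings, with both counting intervals excluding 1. In each of them the difference between the settings was not tested. The share of all genes that met this rule was not counted. Counting intervals narrow as UMIs rise, so ratios near 1 can meet it.

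Ethanol over vehicle differed in direction between ages for 3 members over whole sections. Psma5, an alpha subunit, had a ratio of 1.07 among aged and 0.959 among young. Psmc4, an ATPase, had 0.897 among aged and 1.05 among young, and Psmc5, another ATPase, had 0.919 among aged and 1.03 among young. In the hypothalamus Psmd1 had 0.743 (0.606 to 0.909) among aged and 1.41 (1.13 to 1.76) among young, with 25.5 CPM in aged ethanol, 34.3 in aged vehicle, 30.9 in young ethanol and 21.9 in young vehicle.

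Aged over young differed in direction between gavage labels for 5 members over whole sections. Psmd11 had 1.27 under ethanol and 0.905 under vehicle. Psmd8 had 0.885 under ethanol and 1.04 under vehicle, Psma1 0.902 and 1.06, Psma4 0.937 and 1.06, and Psma2 0.887 and 1.04 in the same order. In upper cortex Psmd11 had 1.41 (1.12 to 1.76) under ethanol and 0.706 (0.537 to 0.922) under vehicle. Of these 8 whole-section results, only those of Psma1 and Psmd11 kept both intervals on opposite sides of 1 under all 4 alternatives (totals without mitochondrial genes, median-of-ratios factors, all spots and regions weighted equally). Psmd8, Psmc5, Psma2 and Psma4 lost it with median-of-ratios factors, Psmd8, Psma4 and Psma5 without mitochondrial genes, and Psmc4, Psmc5 and Psma4 with regions weighted equally, where Psmc5 was above 1 at both ages (1.01 among aged and 1.03 among young). All of these rest on the same 4 libraries, and the aged ethanol library differs from the others in mitochondrial share (16.5%, against 13.6% to 14.3%), whose part was not tested.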

How the results depend on the processing

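Of 76 called differences of named genes between regions, 47 kept direction and call under every alternative that gave a value and 29 lost the call under at least 1; over all named genes 1530 values were unchanged in call, 99 lost it, 21 gained it and 4 reversed. Without mitochondrially encoded genes (an alternative chosen after seeing the data) white matter had 26 members called, 14 higher and 12 lower, and the hypothalamus 16, 11 and 5; total UMIs alone gave white matter 3 higher and 27 lower, with a median of all genes of -0.25 against -0.05. The hypothalamus also turned to more higher than lower with RLE factors (15: 9 and 6), DESeq2 (17: 10 and 7), Leiden resolution 2 (13: 9 and 4) and without the meninges region (16: 9 and 7), a fit also chosen after seeing the data. Dentate gyrus against CA1 had 14 called with total UMIs alone (9 higher, 5 lower; median of all genes 0.17), and dentate gyrus against the Cabp7-C1ql2 region 34, where Psmb4 reversed to 0.075, Psmb5 to 0.24, Psmb6 to 0.31 and Psmb7 to 0.23 on the log2 scale. CA3 against CA1 had 5 with Leiden resolution 2 (3 higher, 2 lower). The hippocampal layers had 15 higher and 2 lower with total UMIs, the thalamus 11 and 17 without mitochondrial genes, and white matter 5 and 26 at resolution 0.5. The cause of these moves was not tested.

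Leaving out each library in turn, members called ranged over 21 to 27 in white matter, 21 to 25 in the thalamus, 12 to 15 in the hypothalamus, 9 to 13 in the hippocampal layers (lowest without young vehicle), 7 to 8 in dentate gyrus against CA1, 5 to 7 in CA3 against CA1 (lowest without aged ethanol) and 12 to 14 in dentate gyrus against the Cabp7-C1ql2 region. White matter had 4 higher and 23 lower without aged vehicle and 4 and 19 without young vehicle. The median log2 ratio of members in ethanol over vehicle was 0.011 among young and -0.014 among aged without mitochondrial genes, and 0.0022 among aged with median-of-ratios factors. Aged over young under vehicle it was -0.039 with those factors and -0.034 with regions weighted equally, and under ethanol -0.040 without mitochondrial genes and -0.029 with those factors. The aged ethanol over vehicle ratio of Psmd11 lay between 1.45 and 1.52, and that of Psmd1 passed the limit of 25% at 1.27, 1.29 and 1.29 without mitochondrial genes, with those factors and with regions weighted equally, where Psmb6 also passed the lower limit at 0.799. Resolution 0.5 had no CA1 or CA3 region and a 2000-UMI spot minimum left no CA3, so the comparisons that need them had no value there. For age and gavage, no paired analysis was possible because the labels give 1 library per group; the region comparisons were within libraries, with library as a term of every fit.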
